A study of Mus musculus with 10 samples.

Results

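The cytochrome P450 genes of mouse colon organoids were described across 10 libraries. Members were chosen by name, as protein-coding genes of the deposited table called Cyp followed by digits, 1 letter and digits, and 94 of the 56748 genes met this. Organoids, epithelial cultures grown from colon crypts, had received WY-14643 at 100 µM or its vehicle for 2 days, starting 3 days after passage, and messenger RNA of 5 vehicle cultures (replicates 1 to 5) and 5 cultures given WY-14643 (replicates 6 to 10) was sequenced, 1 library each. WY-14643 is a synthetic agonist of the nuclear receptor PPARα. The labels give no strain, genotype, age, animal or organoid line, so the p-values speak only of differences among these 10 libraries, whose spread may be technical, and no group lacked PPARα. Levels are given in FPKM, which takes gene length and library depth into account and so allows comparison between genes.

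Cytochromes P450 are haem enzymes that insert 1 oxygen atom into a substrate. Most sit in the endoplasmic reticulum and draw electrons from the reductase encoded by Por, while a few sit in mitochondria and draw them from ferredoxin. Families 1 to 3 act mainly on drugs, plant compounds and pollutants, although several Cyp2 forms also oxidise arachidonic acid. Family 4 hydroxylates the far end of fatty acids and leukotrienes, and its Cyp4a genes are textbook PPARα targets in rodent liver. Other families make or break down bile acids, steroid hormones, vitamin D and retinoic acid.

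Colon organoids expressed a small part of this family. A mean of at least 1 FPKM in either group was reached by 18 of the 94 members, 50 had lower values, and 26 were at 0 in all 10 libraries. For those 26, 3 reads in a library would have given 0.0247 to 0.126 FPKM, which is the level that a count of 0 leaves undetected, for counting error only. The 21 members with a mean of at least 0.5 FPKM over all libraries were tested, 22.3% of the family, against 50.3% of all protein-coding genes. By the mean over all 10 libraries, the 5 most abundant were Cyp2c55, Cyp2d34, Cyp2s1, Cyp2j6 and Cyp4f14, which held 63.9% of the summed FPKM of the family, and the 14 most abundant held 94.1%. The order differed between libraries: those 5 held 41.3% to 74.5% of the sum within a library, Cyp2c55 was the highest member in 6 libraries, Cyp2d34 in both libraries numbered 5 and 10, Cyp20a1 in vehicle replicate 1 and Cyp2s1 in vehicle replicate 3. Of 58 xenobiotic-type members (families 1 to 3 without the vitamin D form Cyp2r1), 10 were expressed. Of 17 fatty acid and eicosanoid enzymes, all of family 4, 4 were expressed, as were 2 of 6 sterol and bile acid enzymes, 1 of 3 retinoid enzymes and the orphan Cyp20a1. None of the 6 steroid hormone enzymes and none of the 3 vitamin D enzymes reached 1 FPKM.

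**Figure D1:**
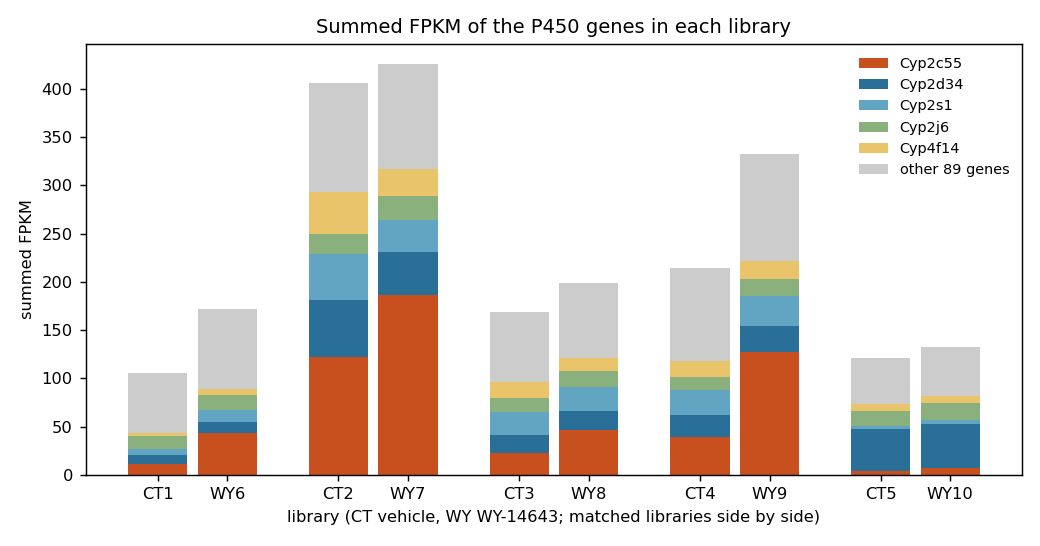
Summed FPKM of the 94 P450 genes in each library, stacked by the 5 most abundant genes and the other 89, with CT for vehicle and WY for WY-14643 before the replicate number and libraries matched in numerical order side by side. The sum ran from 105.9 in vehicle replicate 1 to 425.3 in WY-14643 replicate 7, and the Cyp2c55 part was larger in the WY-14643 library of all 5 couples.

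All 10 colon epithelial markers reached the level for a test and summed to 5162 to 8234 FPKM per library. Markers of fibroblasts summed to at most 0.214 FPKM in any library, of endothelium to 0.0409 and of immune cells to 0.0223, and Dcn, Lum, Cd3e, Adgre1 and Lyz2 were at 0. Hepatocyte markers summed to 0.111 to 1.2 FPKM, with Alb and Serpina1a at 0. Between 15618244 and 29271304 recovered gene-assigned reads stood behind each library, of which P450 genes took 0.0337% to 0.113%. Libraries of the groups resembled each other in numerical order: deviations from the group means correlated at 0.423 to 0.782 over 13607 genes for replicates 1 and 6, 2 and 7, 3 and 8, 4 and 9, and 5 and 10, and at 0.0602 or less for any other combination. These 5 couples, called pairs 1 to 5 here, come from the data and not from a label, and a fit that takes them as a block is called the matched fit.

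Levels differed widely between pairs. On the log2(FPKM + 1) scale the range of the 5 pair means ran from 0.26 in Cyp4f16 and Cyp39a1 to 4.65 in Cyp2c55. Pair 2 was the highest pair in 13 of the 21 members, pair 5 the lowest in 10 and pair 1 the lowest in 8. In vehicle alone, 12 of the 21 differed at least 5-fold between the highest and lowest library, and 4 differed less than 2-fold. Levels of cell type markers also differed between pairs. The absorptive colonocyte list, with 6 of 8 genes tested and Car4 at 0, summed to 395.1, 1408, 635.8, 917.7 and 653.1 FPKM in vehicle replicates 1 to 5 and to 661, 1461, 862.3, 2141 and 784.2 FPKM in WY-14643 replicates 6 to 10. That sum was higher in the WY-14643 library of all 5 pairs. Car1 and Car2, with means of 506 and 395 FPKM over all libraries, made up most of it. Car1, Car2, Krt20 and Slc26a3 were higher in 4 of 5 pairs and Guca2a in 3, while Slc20a1 was lower in 5 of 5. Of the 6 tested genes of this list, 0 passed in limma or voom, with or without pairs. The part of this list in the results below was not tested. Voom with pairs also called 2 other markers. The stem cell marker Lgr5 was lower (4.79 ± 0.852 and 3.79 ± 0.554 FPKM in vehicle and WY-14643 libraries, adjusted p = 0.0476, lower in 5 of 5 pairs). Of the 3 tested stem cell markers only Lgr5 was called. Ascl2 was higher in 4 of 5 pairs (log2 difference 0.40 by voom with pairs, adjusted p = 0.494). Axin2 was lower in 4 of 5 pairs by little (-0.06 by voom with pairs, adjusted p = 0.748). The epithelial Lgals4 was higher (1025 ± 196.5 and 1186 ± 201.8 FPKM, adjusted p = 0.0265, higher in 5 of 5 pairs). The 6 goblet cell markers summed to 33.4 to 73.4 FPKM in vehicle and 18.2 to 72.7 FPKM in WY-14643 libraries, none was called, and their log2 differences had a median of -0.28. Muc2, the main colon mucin, and Clca1 were lower in 5 of 5 pairs (voom with pairs, adjusted p = 0.0903 and 0.172). Agr2 and Spink4 were lower in 4 of 5 pairs and Tff3 in 3. Fcgbp went the other way, higher in 4 of 5 pairs (log2 difference 0.13 by voom with pairs). The part of these markers in the P450 results was not tested either. In RNA of whole cultures, more cells of a type and more RNA per cell cannot be told apart.

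**Figure D2:**
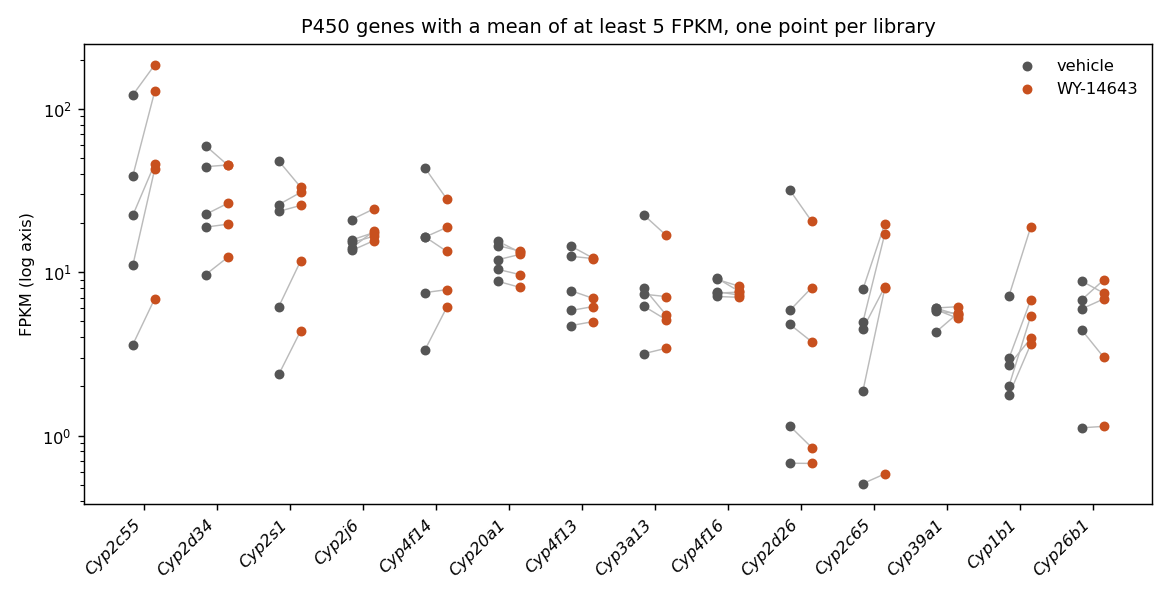
FPKM (log axis) of the 14 P450 genes with a mean of at least 5 FPKM in vehicle (grey) and WY-14643 (orange) libraries, 1 point per library, with lines joining libraries of a pair. All 5 lines rise for Cyp2c55, Cyp2j6, Cyp2c65 and Cyp1b1, while the groups overlap in every gene.

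Whether WY-14643 changed P450 expression was asked in 1 comparison over 13607 genes. Without pairs, limma called 0 of the 21 tested members, as it called 0% of all genes in either direction. At an unadjusted p under 0.05 it had 0 of the 21, beside 1.51% of all genes (1.01% higher, 0.492% lower). Voom on recovered reads without pairs called 0 members and 0% of all genes, and had 1 member, higher, at an unadjusted p under 0.05, beside 1.37% of all genes (0.933% higher, 0.441% lower). The matched limma fit also called 0 members, beside 0.287% of all genes higher and 0.0294% lower. At an unadjusted p under 0.05 it had 6 of the 21, 5 higher and 1 lower, beside 10.6% of all genes, 5.48% higher and 5.09% lower. Voom with pairs called 2 members higher, Cyp2c65 and Cyp1b1, and 0 lower, beside 1.19% and 0.367% of all genes. Its unadjusted p was under 0.05 in 6 members, 4 higher and 2 lower, beside 11.4% of all genes, 5.71% higher and 5.72% lower. The groups overlapped in all 21 members, and 0.243% of all genes had every WY-14643 library above every vehicle library and 0.11% every one below. Higher values in 5 of 5 pairs were found in 4 of the 21, Cyp2c55, Cyp2c65, Cyp1b1 and Cyp2j6, beside 5.63% of all genes, and lower values in 5 of 5 pairs in 0, beside 6.09%. A higher mean log2 value in WY-14643 was found in 15 of the 21, beside 47.1% of all genes, and in 12 of the 21 by voom with pairs. Of the 15, Cyp39a1, Cyp4v3 and Cyp4f17 differed by less than 0.01. The median log2 fold change was 0.05 over the 21 members and -0.006 over all tested genes, and 17 of the 21 lay within 0.3 of 0.

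**Figure D3:**
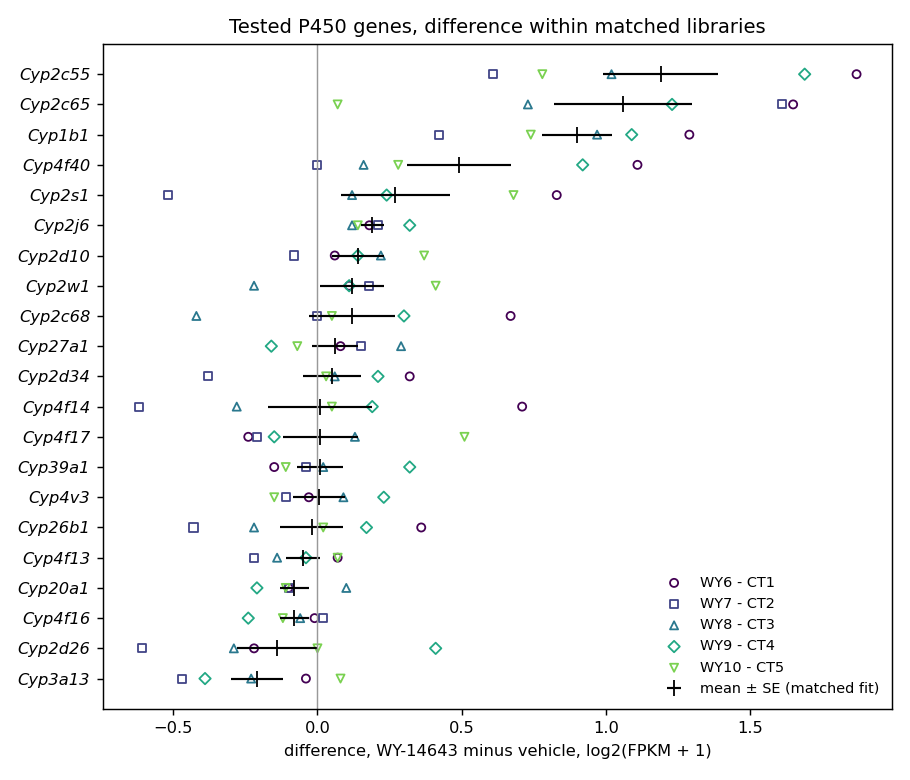
Difference between the WY-14643 and the vehicle library of each pair on the log2(FPKM + 1) scale for the 21 tested P450 genes, with the mean and its standard error from the matched fit in black. Cyp2c55, Cyp2c65 and Cyp1b1 lie to the right of 0 in all 5 pairs with means of 1.19, 1.06 and 0.90, and most other genes scatter around 0.

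The genes with the largest differences were Cyp2c55 and Cyp2c65, which lie next to each other at one end of the Cyp2c cluster, and Cyp1b1. The 250 bases before their transcription starts are shown since no other tested member differed as much between the treatments. They come from RefSeq on build GRCm38.p6, at chr19:39006769-39007018 (plus strand), chr19:39060756-39061005 (plus strand) and chr17:79715062-79715311 (minus strand), whereas the gene table uses mm39. Capitals mark TATAAA, the letters of a TATA box, and CACGC, the reverse complement of the GCGTG core that the aryl hydrocarbon receptor AHR binds.
Cyp2c55: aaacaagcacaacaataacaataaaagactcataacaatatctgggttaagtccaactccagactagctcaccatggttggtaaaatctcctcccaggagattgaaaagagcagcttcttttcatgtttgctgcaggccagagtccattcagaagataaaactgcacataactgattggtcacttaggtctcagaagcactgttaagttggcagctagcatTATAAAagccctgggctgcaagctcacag
Cyp2c65: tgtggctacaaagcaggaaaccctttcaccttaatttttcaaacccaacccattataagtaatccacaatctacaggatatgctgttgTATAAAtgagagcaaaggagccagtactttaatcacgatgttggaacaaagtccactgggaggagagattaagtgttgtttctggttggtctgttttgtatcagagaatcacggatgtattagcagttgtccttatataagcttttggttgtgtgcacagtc
Cyp1b1: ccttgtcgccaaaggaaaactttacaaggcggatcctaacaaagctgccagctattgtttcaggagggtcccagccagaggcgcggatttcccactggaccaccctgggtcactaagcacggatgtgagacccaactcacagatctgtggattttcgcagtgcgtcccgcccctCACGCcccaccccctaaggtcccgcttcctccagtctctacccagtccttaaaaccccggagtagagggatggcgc
The letters searched, on both strands, were the direct repeat that PPARα binds with RXR (AGGTCA, any 1 base, AGGTCA), a single AGGTCA, which that repeat holds, GCGTG and TATAAA. A search of 27025 promoters, taking the first start listed for a gene, found them in 0.037%, 13.8%, 28.2% and 13.0% of the windows. Of the 72 members with a promoter in the table they were in 0, 17, 14 and 26. Cyp2c55 had TATAAA from 29 to 24 bases before its start, Cyp2c65 from 162 to 157 bases before it, and Cyp1b1 had CACGC from 76 to 72 bases before it. AGGTCA, single or repeated, was not among the letters of the 3 windows shown. The Cyp2c55 and Cyp2c65 windows had 54.9% identical bases over 284 aligned positions, against 47.0% for Cyp1b1 with Cyp2c55 and 48.8% for Cyp1b1 with Cyp2c65. Gaps were allowed and no other windows were aligned, so whether 54.9% exceeds the value of unrelated promoters was not tested.

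Cyp2c55, a hydroxylase of arachidonic acid known from mouse colon, had the highest mean over the 10 libraries but ranked eighth in vehicle replicate 5 and sixth in WY-14643 replicate 10. Without vehicle replicate 2 its vehicle mean was 18.9 FPKM, below the 23.9 FPKM of Cyp2d34. It was at 11, 122, 22.3, 38.9 and 3.60 FPKM in vehicle replicates 1 to 5 and at 42.8, 186, 46.1, 128 and 6.88 FPKM in WY-14643 replicates 6 to 10. The WY-14643 library was the higher in each pair, by 3.89-, 1.53-, 2.07-, 3.29- and 1.91-fold, but the groups overlapped widely, with pair 2 high and pair 5 low under both treatments. Group means were 39.5 ± 47.8 and 81.9 ± 73.1 FPKM (SD, n = 5 each), and the log2 fold change of 1.19 had a standard error of 0.98 without pairs (limma, adjusted p = 1) and 0.20 in the matched fit (adjusted p = 0.0930). Voom with pairs gave 1.21 (adjusted p = 0.142), and 1.5 without pair 2, where Cyp2c55 passed (adjusted p = 0.0130). With pair 1, 3, 4 or 5 left out of voom instead, Cyp2c55 did not pass (adjusted p = 0.202 to 0.351). Its share of the summed P450 FPKM was 2.98% to 29.9% in vehicle and 5.19% to 43.7% in WY-14643 libraries. The sum of the other 93 members was 94.9, 284.8, 146.1, 175.7 and 117.4 FPKM in vehicle and 128.6, 239.4, 152.5, 204.9 and 125.8 FPKM in WY-14643 libraries.

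Cyp2c65, an epoxygenase of arachidonic acid found in intestine, is the next gene along chromosome 19. Its values were 1.88, 4.97, 4.50, 7.86 and 0.508 FPKM in vehicle replicates 1 to 5 and 8, 17.2, 8.15, 19.8 and 0.582 FPKM in WY-14643 replicates 6 to 10. Replicates 6 to 9 exceeded every vehicle library, replicate 6 by little, and pair 5 was lowest under both treatments. Within pairs it was 4.26-, 3.47-, 1.81-, 2.52- and 1.15-fold higher. The log2 fold change was 1.06 ± 0.70 (SE) without pairs (limma, adjusted p = 1) and 1.06 ± 0.24 in the matched fit (adjusted p = 0.181). Voom with pairs, which weights values by the reads behind them, gave 1.45 ± 0.16 and called it higher (adjusted p = 9.27e-04), and it stayed called with each pair left out (adjusted p = 6.28e-04 to 0.00833). Pair 5 rests on 21 and 26 reads. Of the 50-base stretches of Cyp2c65 transcripts, 20.2% also occur in Cyp2c66, so reads may be shared between these genes and the call is uncertain to that extent.

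The rest of the Cyp2c cluster was nearly silent. Cyp2c55 lies on chromosome 19 from 38995463 to 39031137 (ENSMUSG00000025002), Cyp2c65 from 39049459 to 39082388 (ENSMUSG00000067231) and Cyp2c66 from 39102342 to 39175516, all on the plus strand in mm39, as whole-gene spans of which only exons are counted. Cyp2c66 had 0 reads in all 5 vehicle libraries and 2, 6, 6, 5 and 0 reads in WY-14643 replicates 6 to 10, too few to compare. Farther along, Cyp2c68 was at 1.82 ± 1.46 and 1.92 ± 1.2 FPKM in vehicle and WY-14643 libraries and did not pass in any fit named here. It shares 43.3% of its 50-base stretches with other P450 genes, so its level is uncertain. Cyp2c69 averaged 0.123 and 0.204 FPKM, and 6 of the 15 Cyp2c genes were at 0 in every library.

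**Figure D4:**
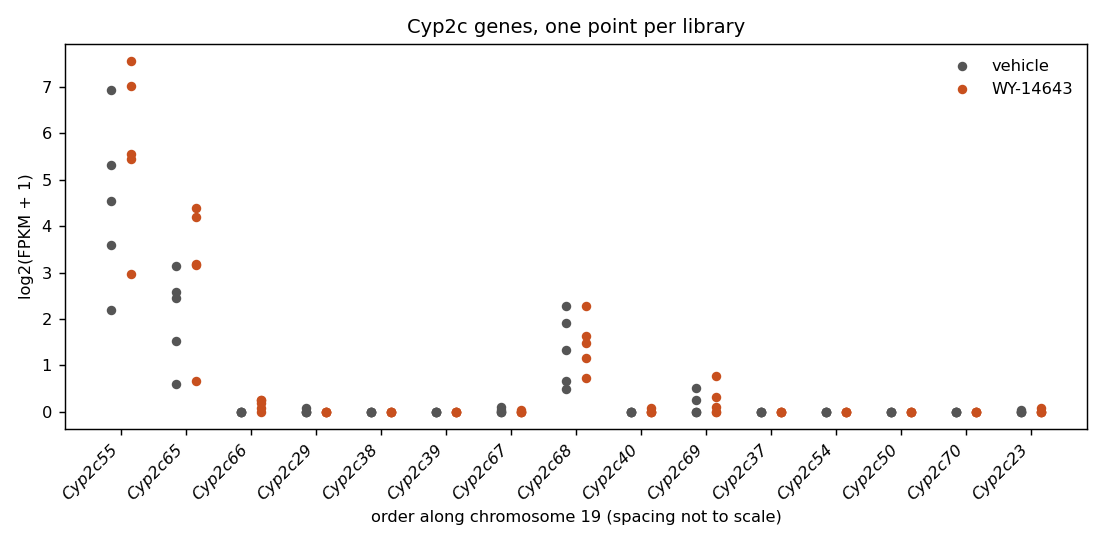
log2(FPKM + 1) of the 15 Cyp2c genes in their order along chromosome 19 (spacing not to scale), 1 point per library, vehicle in grey and WY-14643 in orange. Expression stands at the left end of the cluster, in Cyp2c55 and Cyp2c65, and at Cyp2c68, while the other 12 genes lie at or near 0.

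Cyp1b1, which oxidises oestradiol and polycyclic hydrocarbons and is a classical target of AHR, had the smallest adjusted p of the family in both fits with pairs. It lies on the minus strand of chromosome 17 from 80008966 to 80022490 (ENSMUSG00000024087). Its values were 7.16, 2.70, 2.97, 2.01 and 1.77 FPKM in vehicle replicates 1 to 5 and 19, 3.94, 6.80, 5.43 and 3.64 FPKM in WY-14643 replicates 6 to 10. Pair 1 stood above the others under both treatments, and vehicle replicate 1 was above 4 of the 5 WY-14643 libraries. Within pairs Cyp1b1 was 2.66-, 1.46-, 2.29-, 2.70- and 2.05-fold higher. The log2 fold change was 0.90 ± 0.41 (SE) without pairs (limma, unadjusted p = 0.0526, adjusted p = 1) and 0.90 ± 0.12 in the matched fit (adjusted p = 0.0536). With a pseudocount of 0.1 instead of 1 the matched fit called it higher (adjusted p = 0.0379), as did voom with pairs (1.16 ± 0.12, adjusted p = 2.91e-04). Without pair 1 voom gave 1.03 (adjusted p = 7.06e-04), and the call held with each other pair left out (adjusted p = 1.09e-05 to 0.00446). Cyp1b1 transcripts share 0% of their 50-base stretches with other P450 genes. Cyp1a1, the other well-known AHR target, had 23 reads in all 10 libraries together and Cyp1a2 had 0. Ahr itself, at 7.93 ± 1.25 and 7.59 ± 1.27 FPKM, passed in none of the 4 fits. The part of AHR in the Cyp1b1 difference was not tested.

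Cyp2j6, of the Cyp2j subfamily, was the steadiest of the abundant xenobiotic-type forms. It was at 13.6, 21, 15.2, 14.1 and 15.8 FPKM in vehicle replicates 1 to 5 and at 15.6, 24.4, 16.6, 17.8 and 17.5 FPKM in WY-14643 replicates 6 to 10. Each WY-14643 library lay above its partner by a small step, and the groups overlapped. Its difference of 0.19 ± 0.04 (log2, matched limma fit) did not pass (adjusted p = 0.173), nor did the 0.20 of voom with pairs (adjusted p = 0.106).

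Cyp2d34, of the drug-metabolising Cyp2d subfamily, was second in mean level over all libraries. It was at 9.68, 59.4, 18.9, 22.6 and 44.3 FPKM in vehicle and 12.3, 45.3, 19.7, 26.4 and 45.4 FPKM in WY-14643 libraries, in numerical order. Pairs 2 and 5 were high and pair 1 low in both groups, and the matched log2 fold change was 0.05 ± 0.10. Cyp2d26, of the same subfamily, was at 1.14, 31.7, 4.79, 5.84 and 0.677 FPKM in vehicle and 0.844, 20.4, 3.75, 8.06 and 0.675 FPKM in WY-14643 libraries. Pair 2 again stood far above the rest, but pair 5, high for Cyp2d34, was the lowest here, and the matched log2 fold change was -0.14 ± 0.14. Cyp2d10 averaged 1.39 ± 1.61 and 1.60 ± 1.59 FPKM. Of the 50-base stretches of Cyp2d34, Cyp2d26 and Cyp2d10, 7.31%, 9.49% and 35.2% occur in other P450 genes, so the split of reads among Cyp2d genes, for Cyp2d10 above all, is uncertain.

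Cyp2s1, an epithelial form found mostly outside the liver, was at 6.16, 47.9, 23.6, 25.9 and 2.37 FPKM in vehicle and at 11.8, 33.1, 25.6, 30.8 and 4.38 FPKM in WY-14643 libraries. As for Cyp2c55, pair 2 was highest and pair 5 lowest, and the WY-14643 library was lower in pair 2 and higher in the other 4 pairs (matched log2 fold change 0.27 ± 0.19). The pseudogene Gm45226 lies within its span on the other strand, at 2.71 and 3.64 FPKM, and whether counting used strand is not known here. Cyp3a13, the main Cyp3a form of mouse gut, was at 7.33, 7.99, 6.19, 22.4 and 3.17 FPKM in vehicle and 7.10, 5.50, 5.13, 16.9 and 3.42 FPKM in WY-14643 libraries. It was highest in pair 4 and lower in the WY-14643 library of 4 of 5 pairs, with a matched log2 fold change of -0.21 ± 0.09 that did not pass (limma, adjusted p = 0.466). The processed pseudogene Gm15502 lies within its span at 3.68 and 3.33 FPKM.

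Several low members were chosen for mention after their values were seen. Cyp3a11, the main Cyp3a form of mouse liver and a target of the xenobiotic receptor PXR, had 138 reads in all, of which 48 were in vehicle replicate 5 and 84 in WY-14643 replicate 10. Cyp2b19, a keratinocyte form, had 119 reads, of which 42 and 65 were in that same pair. Cyp2b10, the usual target of the receptor CAR, had 15 reads in 10 libraries. The tested Cyp2w1, known from colon tumours, averaged 0.745 ± 0.711 and 0.911 ± 0.846 FPKM.

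Among the fatty acid hydroxylases, Cyp4f forms were present and Cyp4a forms were at or near 0. Cyp4a10, Cyp4a14 and Cyp4a31 were at 0 in all libraries, Cyp4a29 had 4 reads in all and Cyp4a32 had 1. Outside the naming pattern, Cyp4a12b was at 0 and Cyp4a12a was above 0 only in WY-14643 replicate 10, at 0.0357 FPKM. Ppara RNA itself averaged 0.298 ± 0.174 and 0.336 ± 0.177 FPKM.

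Cyp4f14, which inactivates leukotriene B by hydroxylation, was the leading Cyp4f form. It was at 3.33, 43.6, 16.5, 16.4 and 7.50 FPKM in vehicle and 6.09, 28.1, 13.4, 18.8 and 7.82 FPKM in WY-14643 libraries. Pair 2 was highest and pair 1 lowest, with the WY-14643 library higher in 3 pairs and lower in 2, and the matched log2 fold change was 0.01 ± 0.18. Cyp4f13 was at 4.71, 14.4, 7.71, 12.5 and 5.83 FPKM in vehicle and 4.98, 12.2, 6.93, 12.1 and 6.16 FPKM in WY-14643 libraries, with pairs 2 and 4 high in both (matched log2 fold change -0.05 ± 0.06). Cyp4f16, in contrast, hardly varied, at 7.10, 7.45, 7.60, 9.20 and 9.04 FPKM in vehicle and 7.02, 7.55, 7.25, 7.65 and 8.22 FPKM in WY-14643 libraries (matched log2 fold change -0.08 ± 0.05). Its transcripts share 16.3% of their 50-base stretches with Cyp4f37, which is at 0. Cyp4f40 averaged 2.13 ± 2 and 3.20 ± 2.16 FPKM, was at most 0.416 FPKM in pair 5, and had the fourth largest log2 fold change (0.49 ± 0.18 in the matched fit; limma, adjusted p = 0.395). Cyp4f17 averaged 0.748 and 0.760 FPKM and Cyp4v3 0.777 and 0.764 FPKM. Cyp4b1, a low form outside these subfamilies, had 3, 22, 1, 2 and 11 reads in vehicle and 4, 22, 8, 28 and 29 reads in WY-14643 libraries and fell short of the level for a test. Cyp4f18 and Cyp4f39 were under 0.1 FPKM in both group means, as was Cyp4f15.

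Sterol and bile acid enzymes were represented by Cyp39a1 and Cyp27a1. Cyp39a1, an oxysterol hydroxylase, was at 5.89, 5.78, 6.04, 4.30 and 6.02 FPKM in vehicle and 5.22, 5.58, 6.15, 5.61 and 5.49 FPKM in WY-14643 libraries. All libraries but vehicle replicate 4 lay close together. Cyp27a1, the mitochondrial sterol side-chain hydroxylase, averaged 2.54 ± 0.955 and 2.65 ± 0.728 FPKM. Cyp7a1, the rate-limiting enzyme of bile acid synthesis in liver, was at 0, and Cyp7b1 and Cyp8b1 had 1 and 2 reads in all.

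Cyp26b1, which breaks down retinoic acid, was at 6.80, 4.41, 8.80, 5.97 and 1.12 FPKM in vehicle and 8.99, 3.01, 7.44, 6.87 and 1.14 FPKM in WY-14643 libraries. Pair 5 was low under both treatments, and the matched log2 fold change was -0.02 ± 0.11. Its paralog Cyp26a1 was at 0. The vitamin D enzymes had few reads: Cyp27b1, which activates the vitamin, had 34 reads in all, Cyp24a1, which breaks it down, 1, and Cyp2r1 4. Of the steroid hormone enzymes Cyp19a1, the aromatase, was highest at 0.177 and 0.146 FPKM. Cyp20a1, an orphan enzyme, was at 14.5, 10.4, 11.9, 15.5 and 8.79 FPKM in vehicle and 13.5, 9.67, 12.8, 13.2 and 8.09 FPKM in WY-14643 libraries. It was among the members that varied least, and its matched log2 fold change was -0.08 ± 0.05.

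Partner genes of the pathway mostly did not pass. Among 10 tested electron donors and membrane partners, limma called 0 without pairs and 0 with them, and voom with pairs called 1 higher, Por. Por, the reductase that feeds electrons to microsomal P450 enzymes, was at 36.0, 82.1, 48.1, 64.8 and 33.6 FPKM in vehicle and 53.5, 83.8, 62.3, 86.4 and 38.7 FPKM in WY-14643 libraries. It was higher in the WY-14643 library of every pair, by 1.02- to 1.49-fold, with a log2 fold change of 0.31 ± 0.07 by voom with pairs (adjusted p = 0.0429) and an adjusted p of 0.205 in the matched limma fit. Pairs 2 and 4 were the highest for Por in both groups, as they were for Cyp2c55. The list's median log2 fold change was 0.01, beside -0.006 over all tested genes.

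Of 12 tested genes of haem synthesis and breakdown none was called in the 4 fits (limma and voom, each with and without pairs), and Alas1, the first enzyme of haem synthesis, was at 8.31 ± 1.09 and 8.44 ± 1.25 FPKM. Hmox1, the haem oxygenase that breaks haem down, was at 17.7 ± 5.19 and 25.3 ± 4.16 FPKM and higher in 4 of 5 pairs, with a difference of 0.53 on the log2 scale (limma without pairs, unadjusted p = 0.0324, adjusted p = 1; voom with pairs, unadjusted p = 0.0102, adjusted p = 0.216). None of 3 tested epoxide hydrolases and flavin monooxygenases was called either, among them Ephx1 at 119 ± 45.5 and 126 ± 49.8 FPKM. Of 11 tested receptors that switch on P450 genes, the matched fit and voom with pairs each called 1 higher, Nr1i2, the receptor PXR. It was at 3.36, 12.5, 4.14, 4.27 and 5.30 FPKM in vehicle and 5.72, 16.5, 6.86, 6.14 and 6.82 FPKM in WY-14643 libraries. The WY-14643 library was the higher in all 5 pairs, by 0.47 ± 0.06 on the log2 scale in the matched limma fit (adjusted p = 0.0462). Nr1i2 did not pass without pairs (limma, adjusted p = 1). The matched limma fit also did not call it without pair 2, without pair 3 or with no filter on low values.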

How the data were processed

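The deposited values are FPKM made by the authors. Build mm39, the aligner HISAT2 2.0.5 and the counter featureCounts 1.5.0-p3 are named in the submitters' processing notes. Which annotation release was used, whether strand was used and how multi-mapped reads were treated is not given in the sources used here. In the deposited table, per the file headers, gene length is given beside each gene. FPKM multiplied by gene length and divided by its smallest value in a library gave whole reads in 100% of values (tolerance 0.01), and these were used for depth and for voom, scaled as the deposited FPKM. The members and lists were chosen with earlier results of these data known.

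Groups follow the treatment label. Genes with a mean of at least 0.5 FPKM (13607) were tested with limma 3.58.1 in R 4.3.3 on log2(FPKM + 1), eBayes with trend and robust priors, no block, and Benjamini-Hochberg adjustment over all of them at 0.05. Fold changes on this scale understate changes of low genes. Alternatives took the libraries matched in numerical order as a replicate block, recovered reads with voom, other pseudocounts and filters, library weights and left-out libraries. The fits were tested on simulated data with known changes. Standard errors are those of the moderated fit.

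Named with every library were members with a mean of at least 5 FPKM, those that passed or whose groups did not overlap; other expressed members and the Cyp4a and Cyp4f forms were named with group means. Further low members, Por, Nr1i2, Hmox1 and the markers named singly were singled out after their values were seen. The planned comparison of proteins was replaced by the share of 50-base stretches of GENCODE M21 transcripts (93 of 94 members matched) that occur in another P450 gene. The TATAAA search was added after the data were seen. Python 3.11.15 with matplotlib 3.10.9 made the figures.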

Additional observations from a re-analysis of the deposited data

Results flagged for a closer look

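Of 42 groups of 5 libraries (21 tested members, 2 treatments), 8 held a library whose gap to the next exceeded 0.71 of the range. Chance would flag about 1 in 20 groups if values were independent and normally distributed. The FPKM were not log-transformed and the 2 groups of a gene share pair levels, so 8 of 42 cannot be set against that rate. Among the 8 are both groups of Cyp1b1, through pair 1, at 7.16 FPKM in vehicle replicate 1 (others 1.77 to 2.97) and 19 FPKM in WY-14643 replicate 6 (others 3.64 to 6.80). Cyp3a13 stood out in both libraries of pair 4, at 22.4 FPKM in vehicle replicate 4 (others 3.17 to 7.99) and 16.9 FPKM in WY-14643 replicate 9 (others 3.42 to 7.10). Vehicle replicate 4 was also apart for Cyp27a1, at 4.2 FPKM (others 1.75 to 2.31), and below the rest for Cyp39a1, at 4.30 FPKM (others 5.78 to 6.04). Cyp2d26 was at 31.7 FPKM in vehicle replicate 2 (others 0.677 to 5.84) and Cyp2j6 at 24.4 FPKM in WY-14643 replicate 7 (others 15.6 to 17.8).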

How the results depend on the processing

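The count of called members was 0 without pairs and stayed 0 in every left-out library, with a pseudocount of 0.1 and either other filter. Library weights, voom without pairs and the matched limma fit with each pair left out gave 0 as well. So did libraries divided by their median ratio, but that ratio was 1.009 in every library, so this step could not change a call. The count of called members was 2 in voom with the replicate block and 1 in the matched fit with a pseudocount of 0.1. With a pair left out of voom with the block it was 2 to 3, Cyp2c55 being the addition without pair 2. Over all genes, 0 were called without pairs, 43 with the replicate block, 212 by voom with the block and 21 with library weights (18 higher, 3 lower). Those weights were 4.35 for vehicle replicate 3 and 3.90 for WY-14643 replicate 8, against 0.552 to 1.025 for the others. The weighted fit thus leaned heavily on 1 library of each group, for the members as well. The matched fit called 40 genes with a pseudocount of 0.1 and 2 with no filter. With libraries left out the count was 0 to 2 without pairs (1 without vehicle replicate 2, 2 without vehicle replicate 5, 1 without WY-14643 replicate 10), 2 to 33 in the matched fit (2 without pair 3, 3 without pair 2, 13 without pair 4) and 94 to 342 in voom with the block (342, 169, 94, 126 and 151 without pairs 1 to 5). The cause was not tested. The block rests on the numerical order of the libraries, not on a label. Alternatives that join the block with a pseudocount of 0.1 or with no filter, and voom with a pair left out, were chosen after seeing the data.

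Across 30 alternatives the log2 fold change ran from 0.61 to 1.87 for Cyp2c55, 0.69 to 1.67 for Cyp2c65, 0.55 to 1.29 for Cyp1b1 and 0.09 to 0.29 for Cyp2j6, with 0 sign changes in each. Of 627 recomputed values of single members 14 were called, all of Cyp2c65, Cyp1b1 or Cyp2c55, and 83, of 15 members, differed in sign from the value without pairs without being called. Members at 0.1 FPKM or more in either group numbered 31, against 18 at 1 FPKM and 21 at 0.5 FPKM. Depth limits members with few reads, such as Cyp2c66 with 19 in all.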
